A study of Mus musculus with 6 samples.

Results

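Calcrl, Ramp1, Ramp2, Ramp3 and Adm encode the calcitonin receptor-like receptor, its 3 receptor activity-modifying proteins (RAMPs) and adrenomedullin, a peptide that signals through it. These 5 genes, of 19938 measured, were chosen by their place in this receptor system with their array values in Scf-GFP+ cells and whole marrow already in view. Each is read from the row of the deposited array table that lists its symbol and no other, and each had 1 such row. The study set marrow cells positive for a stem cell factor reporter against whole bone marrow, both from C57BL/6 background young adults, on 3 Affymetrix Mouse Gene 1.0 ST arrays per group. The Scf-GFP+ cells came from mice heterozygous for a green fluorescent protein knocked into the stem cell factor gene (Kitl) and were sorted a second time, and the whole bone marrow cells came from wild-type mice. Each array carried amplified RNA from 5000 sorted cells. Cell population, genotype and number of sorts changed together, so their shares in any difference cannot be told apart. The sex of the mice also appeared to differ in part between the groups, as read from 1 transcript alone. The sex-linked transcript Xist measured 11.50, 11.81 and 5.04 in Scf-GFP+ replicates 1 to 3, against 4.99 to 5.10 in whole marrow. The labels call the aliquots independent but name no animals, and p-values therefore cover only the spread between these samples, which may be technical. In sorted mixtures of this kind, fewer cells of a type and less RNA per cell cannot be told apart either.

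Calcrl is a class B G protein-coupled receptor that reaches the cell surface together with a RAMP, a single-pass membrane protein that also sets which peptide it binds. With Ramp1 the pair forms a receptor for calcitonin gene-related peptide (CGRP), a peptide of sensory nerves, and with Ramp2 or Ramp3 it forms receptors for adrenomedullin. Both kinds of receptor act mainly through the stimulatory G protein Gs, adenylyl cyclase and cyclic AMP, and adrenomedullin with Calcrl and Ramp2 is best known for its part in blood and lymph vessel growth and in vessel tone.

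The RAMPs differed in opposite directions between the groups. Ramp2 was higher in Scf-GFP+ cells by 4.20 on the log2 scale, Ramp1 was lower by -2.35, and Ramp3 lay at similar values in both. Calcrl was higher in Scf-GFP+ cells by 1.54 with a wide spread between arrays, and the ligand Adm overlapped between the groups. The genes were chosen with this contrast in view, so their values are a description and carry no test. The array ranges of the groups did not overlap for 3 of the 5 genes, against 45.4% of all 19938 genes. Calcrl and Ramp2 were the higher ones (19% of all genes) and Ramp1 the lower one (26.4%). The median difference was -0.16 over the 5 genes and -0.08 over all genes tested.

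The promoters of Calcrl, Ramp1 and Adm are shown because Calcrl and Ramp1 separated the groups in opposite directions and Adm is the ligand. Each stretch runs from 250 bases before the gene's start to 50 bases after it, 5′ to 3′ on the gene's strand, from RefSeq on build GRCm38.p6. They lie at chr2:84425217-84425516 on the minus strand for Calcrl, chr1:91179572-91179871 on the plus strand for Ramp1, and chr7:110627407-110627706 on the plus strand for Adm. Capitals mark matches on either strand to any of the searched motifs.
Calcrl: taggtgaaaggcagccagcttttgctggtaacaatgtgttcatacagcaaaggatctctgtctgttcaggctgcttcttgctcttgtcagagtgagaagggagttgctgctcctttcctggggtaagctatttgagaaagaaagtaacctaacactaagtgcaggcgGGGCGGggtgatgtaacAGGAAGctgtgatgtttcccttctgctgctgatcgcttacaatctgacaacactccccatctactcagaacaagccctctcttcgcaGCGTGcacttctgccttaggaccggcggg
Ramp1: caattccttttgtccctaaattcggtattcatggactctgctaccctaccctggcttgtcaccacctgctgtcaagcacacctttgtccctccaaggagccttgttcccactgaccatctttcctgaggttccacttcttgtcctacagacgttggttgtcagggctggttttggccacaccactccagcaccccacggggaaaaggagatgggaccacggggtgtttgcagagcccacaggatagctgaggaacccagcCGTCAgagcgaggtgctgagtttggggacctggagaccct
Adm: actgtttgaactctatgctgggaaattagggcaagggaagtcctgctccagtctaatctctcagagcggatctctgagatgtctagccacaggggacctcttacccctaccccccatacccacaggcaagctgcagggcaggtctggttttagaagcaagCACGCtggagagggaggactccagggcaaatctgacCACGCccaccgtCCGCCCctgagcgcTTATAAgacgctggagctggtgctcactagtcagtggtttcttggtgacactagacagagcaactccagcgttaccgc

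Letter matches in these windows were few and of common motifs. The searched motifs were the cyclic AMP response element core (TGACG), the hypoxia response element core in 2 spellings (ACGTG, and with a different first letter GCGTG), an Ets factor core (AGGAAG), the GC box (GGGCGG), the TATA box (TATAA) and the CCAAT box. Both strands were searched. Calcrl held 1 match each to the hypoxia core GCGTG, the Ets core and the GC box, which occur in 32.4%, 35.4% and 35.7% of 32851 mouse promoter windows of the same length. Ramp1 held 1 match, to TGACG, found in 20.8% of the windows. Adm held 2 matches to GCGTG, 1 to the GC box and 2 overlapping matches to the TATA box on opposite strands, the last found in 24.9% of the windows. The Ramp3 window, not printed, held 2 matches to GCGTG, 1 to the Ets core and 3 to the GC box. The other hypoxia core, ACGTG, and the CCAAT box, present in 19.6% and 37.4% of windows, had no match in these 4 windows. Matches describe letters only. Ramp2 is named without a sequence.

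Calcrl, the receptor itself (NCBI Gene 54598, chromosome 2), varied most between Scf-GFP+ arrays. It measured 8.86, 6.84 and 7.76 in Scf-GFP+ replicates 1, 2 and 3, against 6.16, 6.74 and 5.94 in whole marrow replicates 1, 2 and 3, as log2 values. The lowest Scf-GFP+ array lay only 0.09 above the highest whole marrow array, so the groups touched without overlapping. The mean was 7.82 ± 1.01 (SD, n = 3) in Scf-GFP+ cells, against 6.28 ± 0.42 in whole marrow, which is 1.54 ± 0.50 SE or 2.91-fold higher. Its SD in Scf-GFP+ cells was larger than that of 99.0% of all genes. Without Scf-GFP+ replicate 1 the difference was 1.02 ± 0.36 SE, and without Scf-GFP+ replicate 2 it was 2.03.

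Markers of other cells differed among the same 3 Scf-GFP+ arrays. The mean log2 value over 12 neutrophil markers was 9.24, 6.06 and 6.19 in Scf-GFP+ replicates 1, 2 and 3, against 11.69 to 11.77 in whole marrow, and that over 12 pan-haematopoietic markers was 7.49, 6.28 and 6.28, against 10.08 to 10.31. Replicate 1, highest for Calcrl, was also highest of its group for these lists, but not for the B cell list (5.77, 5.79 and 5.81 in Scf-GFP+ replicates 1 to 3, against 9.07 to 9.67 in whole marrow) or the erythroid list (6.13, 6.33 and 5.97, against 10.38 to 10.77). Of the pan-haematopoietic markers Runx1 alone went the other way. It measured 11.30, 10.96 and 11.32 in Scf-GFP+ replicates 1 to 3, against 8.85 to 9.31 in whole marrow. The mean over 21 endothelial markers was 7.08, 6.88 and 6.50 in Scf-GFP+ cells, against 6.49 to 6.55 in whole marrow. Members of the endothelial list went both ways. In Scf-GFP+ replicate 3, where the mean lay within the whole marrow range, Emcn measured 7.02, against 5.19 to 5.22 in whole marrow, whereas Pecam1, which blood cells also express, measured 6.82, against 9.09 to 9.36. The part of these cell types in the Calcrl values was not tested. Of these endothelial markers, which include the vascular cadherin Cdh5 and the angiopoietin receptor Tek, limma called 4 higher, 2 lower and 15 neither. The call of Erg as lower was lost, which left 1, when any array other than Scf-GFP+ replicate 1 was left out. That of Cdh5 as higher was lost, which left 3, when any array other than Scf-GFP+ replicate 3 was left out. The Cdh5 call was also lost when a term for the split in the sex-linked transcript Xist was added. A call here is a limma adjusted p below 0.05 over all genes with a difference of at least 2-fold, which 16.9% of genes reached.

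**Figure D1:**
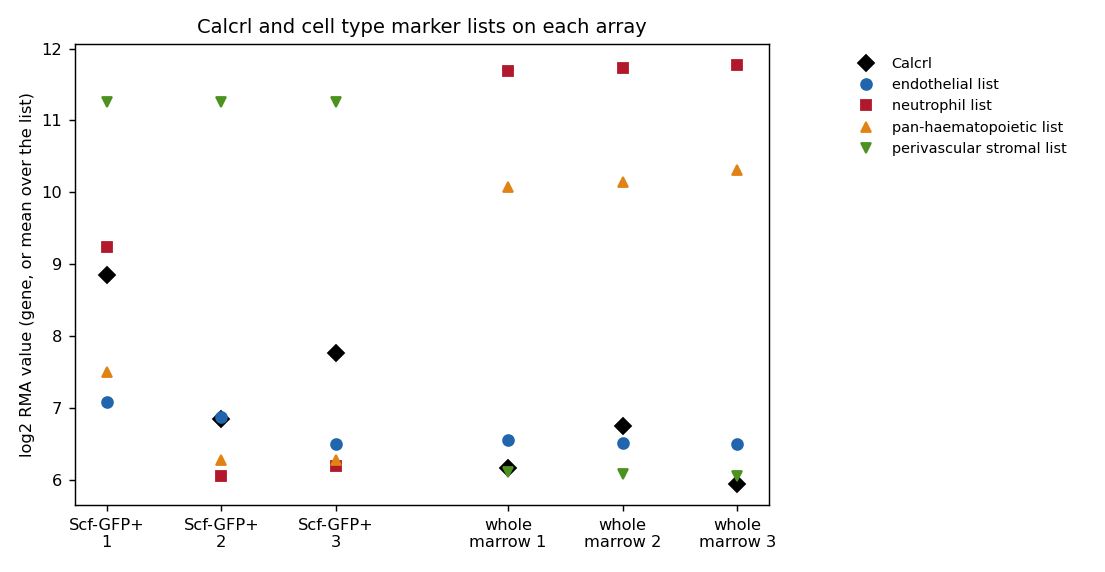
Log2 values of Calcrl and mean log2 values of 4 marker lists (vertical axis) on each of the 3 Scf-GFP+ and 3 whole bone marrow arrays (horizontal axis), 1 point per array. Among the Scf-GFP+ arrays, Calcrl and the neutrophil, pan-haematopoietic and endothelial lists are all highest in replicate 1. The perivascular stromal list stays between 11.25 and 11.26 on these arrays. Values of Calcrl and of lists come from different probes, so only their changes from array to array can be compared.

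Ramp2 (NCBI Gene 54409, chromosome 11), the RAMP of the main adrenomedullin receptor, showed the largest difference of the 5 genes. It measured 9.86, 10.44 and 9.93 in Scf-GFP+ replicates 1 to 3, against 6.00, 5.80 and 5.81 in whole marrow replicates 1 to 3. Every Scf-GFP+ array was high and every whole marrow array low, with a gap of 3.86 between the nearest arrays. The difference of 4.20 ± 0.18 SE corresponded to 18.4-fold and lay between 4.02 and 4.31 when single arrays were left out. Endothelial cells are a known site of Ramp2, and the endothelial list, whose members went both ways, averaged 7.08, 6.88 and 6.50 on the same Scf-GFP+ arrays. Its part in the Ramp2 values was not tested.

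Ramp1 (NCBI Gene 51801, chromosome 1), which turns Calcrl into a CGRP receptor, was lower in Scf-GFP+ cells. It measured 6.03, 6.62 and 6.41 in Scf-GFP+ replicates 1 to 3, against 8.40, 9.06 and 8.65 in whole marrow replicates 1 to 3. The groups did not overlap, with a gap of 1.78 between the nearest arrays. The difference was -2.35 ± 0.22 SE, a 5.09-fold lower value, and ranged from -2.50 to -2.17 when single arrays were left out. The SD within whole marrow was 0.33 (n = 3), larger than that of 82.8% of all genes and than the group's median SD of 0.16. Neutrophil markers, far lower in Scf-GFP+ cells, averaged 9.24, 6.06 and 6.19 on the Scf-GFP+ arrays, and their part in the Ramp1 values was not tested.

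Ramp3 (NCBI Gene 56089, chromosome 11), which forms the other adrenomedullin receptor, did not separate the groups. It measured 6.16, 5.56 and 5.81 in Scf-GFP+ replicates 1 to 3, against 5.88, 5.81 and 6.32 in whole marrow replicates 1 to 3. The ranges overlapped, and all 6 values lay below the arrays' medians of 6.56 to 6.63. The difference was -0.16 ± 0.20 SE and became 0.0017 without whole marrow replicate 3, so no direction can be given. RMA gives no detection call, and such low values do not show that the transcript was missing.

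Adm (NCBI Gene 11535, chromosome 7), the gene for adrenomedullin, was low on 5 of the 6 arrays. It measured 5.87, 5.72 and 6.17 in Scf-GFP+ replicates 1 to 3, against 7.59, 5.68 and 5.72 in whole marrow replicates 1 to 3. Whole marrow replicate 1 alone stood apart, and the groups overlapped. The SD within whole marrow, 1.09 (n = 3), was larger than that of 99.6% of all genes. The difference of -0.41 ± 0.51 SE turned to 0.22 ± 0.16 SE without whole marrow replicate 1, so the sign rests on that array.

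**Figure D2:**
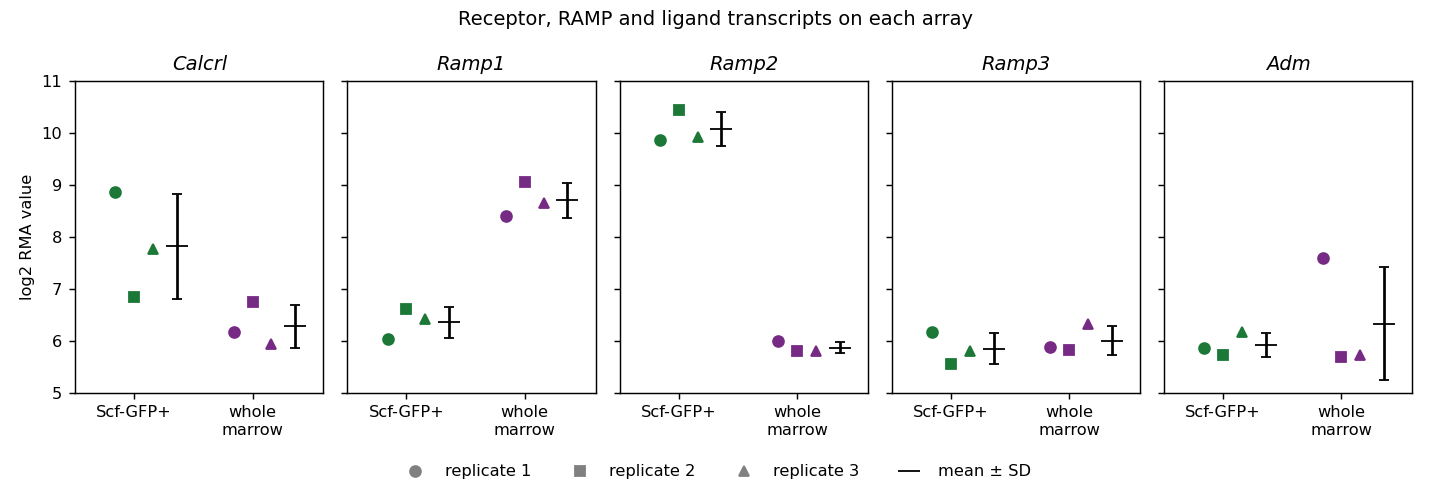
Log2 RMA values (vertical axis) of the 5 genes on each array, with Scf-GFP+ arrays left of whole bone marrow arrays, a symbol for each replicate and bars for the mean ± SD of 3 arrays. Ramp2 and Ramp1 separate the groups in opposite directions, Calcrl is spread from 6.84 to 8.86 in Scf-GFP+ cells, and a single whole marrow array at 7.59 stands apart for Adm.

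**Figure D3:**
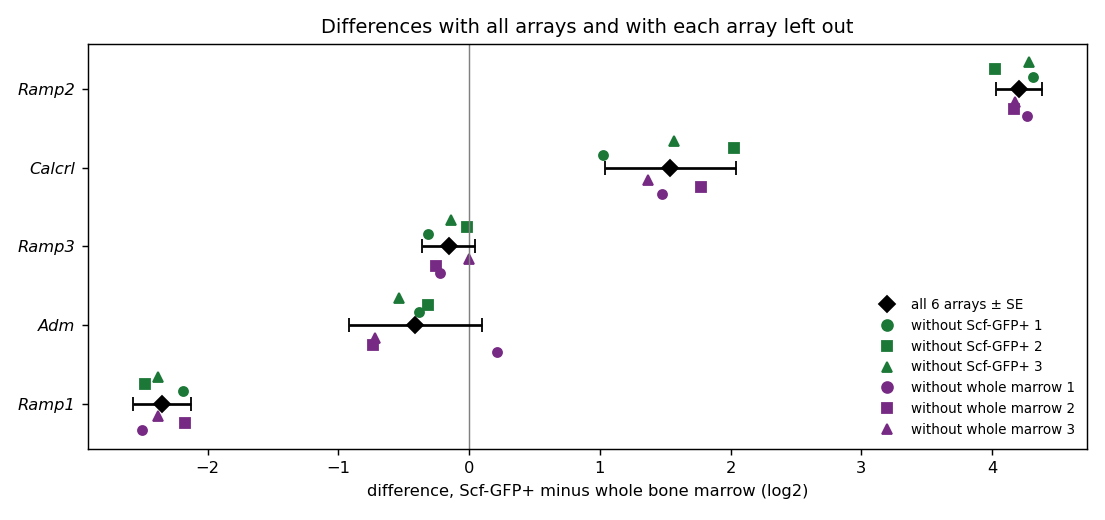
Difference between Scf-GFP+ cells and whole bone marrow on the log2 scale (horizontal axis) for each gene, with all 6 arrays (diamond, bar for ± SE) and with each array left out in turn (coloured symbols, Scf-GFP+ arrays above and whole marrow arrays below). Ramp2 stays at 4.02 or above and Ramp1 at -2.17 or below, while Adm and Ramp3 reach 0.22 and 0.0017 on the other side of 0.

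The genes with the most similar pattern over the 6 arrays were found by the distance between log2 values after the mean of each gene was taken off. Ramp2 was closest to Cd302 (distance 0.31), Ecm2 (0.35) and Casp12 (0.41), each higher in Scf-GFP+ cells by between 3.94 and 4.31. Ramp1 was closest to Dna2 (0.28), H2-T24 (0.38) and Kmo (0.38), and Calcrl to Rnu7 (0.41), Zfp420 (0.62) and Rcan2 (0.63). Rcan2 measured 7.72, 5.78 and 7.29 in Scf-GFP+ replicates 1 to 3, the same order of arrays as Calcrl. That order was found for 16.55% of all genes. Similar genes were picked on these same arrays, so a shared pattern is no separate result. Adm was closest to Il18 (0.44), which measured 7.12 in whole marrow replicate 1 and 5.41 to 6.04 on the other arrays, and then to Slc25a53 and Gm15760. Ramp3 was closest to Olfr59, Tmppe and Wdr77.

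The genes that surround the receptor were taken from 8 lists of related ligands and receptors, peptide processing, cyclic AMP signalling and hypoxia, of which 109 of 117 genes were measured. In Scf-GFP+ cells limma called 21 of the 109 higher and 16 lower, or 33.9%, against 16.9% of all genes tested. The lists were fixed with earlier results of these data known, so these shares are a description and not a test. The median difference over the 109 genes was -0.04, against -0.08 over all genes. Among all genes 9.01% were called higher and 7.89% lower. Xist separated Scf-GFP+ replicates 1 and 2 from the other arrays, and a fit on all 6 arrays with a term for this sex-linked split, which rests on Scf-GFP+ replicate 3 alone against whole marrow, kept 26 of the 37 calls.

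No related ligand was called. The 3 measured were Adm2, a second adrenomedullin-like peptide, at -0.05 ± 0.14 SE, Calcb, a CGRP gene, at -0.04 ± 0.17, and Iapp, amylin, at 0.16 ± 0.12, with limma adjusted p of 0.840, 0.894 and 0.386. None of these lay without overlap between the groups. Calca, which encodes calcitonin and CGRP, was not analysed here.

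Of 19 related receptors and RAMP partners, 2 were called higher and none lower in Scf-GFP+ cells. Pth1r, the parathyroid hormone receptor of bone-forming cells and a class B receptor like Calcrl, measured 8.39, 8.88 and 8.71 in Scf-GFP+ cells, against 5.94, 6.15 and 5.87 in whole marrow (2.67 ± 0.16 SE, limma adjusted p = 4.80e-05). Gpr182, an endothelial receptor once proposed to bind adrenomedullin, measured 6.62 to 6.70 in Scf-GFP+ cells, against 5.56 to 5.65 in whole marrow (1.06 ± 0.09, adjusted p = 0.000300). Calcr, the calcitonin receptor, which also pairs with RAMPs, differed by -0.07 ± 0.10 and was not called (adjusted p = 0.659). Ackr3, a scavenger of Cxcl12 and adrenomedullin, differed by 0.68 ± 0.27 (adjusted p = 0.121) and Crcp, a cytoplasmic helper of CGRP receptor signalling, by -0.37 ± 0.28 (adjusted p = 0.387), neither called. Without Scf-GFP+ replicate 2 the higher calls became 3, and with the sex-linked term 4, Vipr2 and Adcyap1r1 being added.

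Among enzymes that mature or break down peptides, Mme and Pam differed most. Of 11 measured, 5 were called higher and none lower in Scf-GFP+ cells. Mme, neprilysin, a membrane peptidase that degrades many small peptides, measured 11.63, 11.67 and 11.34 in Scf-GFP+ cells, against 4.83, 4.81 and 4.81 in whole marrow, a 106-fold higher value (6.73 ± 0.12 SE, limma adjusted p = 2.01e-06). Pam, which adds the terminal amide that adrenomedullin and CGRP need for activity, measured 10.10, 10.08 and 10.39 in Scf-GFP+ cells, against 7.25, 7.12 and 7.00 in whole marrow (3.07 ± 0.13, adjusted p = 1.33e-05). Every Scf-GFP+ array lay above every whole marrow array for both. Ece1, a peptidase that converts endothelin, was higher by 1.93 ± 0.36 (adjusted p = 0.00810), and Cpd, a carboxypeptidase, by 1.32 ± 0.25 (adjusted p = 0.00929). With the sex-linked term Cpd lost its call (adjusted p = 0.114) and Cpe gained one.

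Of 21 genes of Gs and cyclic AMP signalling, limma called 4 higher and 1 lower. The adenylyl cyclases, which make cyclic AMP, differed by isoform. Adcy2 measured 10.50, 10.66 and 10.14 in Scf-GFP+ cells, against 5.65, 5.82 and 5.43 in whole marrow (4.80 ± 0.17 SE, limma adjusted p = 7.17e-06), and Adcy4, which endothelial cells also express, was higher by 2.01 ± 0.23 (adjusted p = 0.000854). Adcy7, an isoform of blood cells, was lower by -1.23 ± 0.11 (adjusted p = 0.000304). Prkacb, a catalytic subunit of protein kinase A, was higher by 1.57 ± 0.20 (adjusted p = 0.00146), and Rapgef3, the cyclic AMP sensor Epac1, by 1.27 ± 0.23 (adjusted p = 0.00740). Gnas, the Gs alpha subunit itself, was not analysed here. Crem joined Adcy7 as a lower call, which made 2, without Scf-GFP+ replicate 2, whole marrow replicate 1 or whole marrow replicate 3. Crem also did so when the arrays were quantile normalized again, and Prkar2b did with the sex-linked term. Adcy3 was added as a higher call, which made 5, without Scf-GFP+ replicate 1 and also with the sex-linked term.

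Most of the phosphodiesterases, which break cyclic AMP down, were not called. Of 16 genes 12 passed in neither direction, and the median difference was -0.07, against -0.08 over all genes. Those called were 2 higher in Scf-GFP+ cells, Pde1a at 3.77 ± 0.15 SE (limma adjusted p = 9.26e-06) and Pde7b at 2.36 ± 0.44 (adjusted p = 0.00805), and 2 lower, Pde1b at -2.23 ± 0.18 (adjusted p = 0.000203) and Pde4b at -1.13 ± 0.24 (adjusted p = 0.0134). Pde1a and Pde1b, both activated by calcium and calmodulin, thus differed in opposite directions. Pde4b fell short of the call without whole marrow replicate 1 (-0.93) or whole marrow replicate 3 (adjusted p = 0.0519), which left 1 lower call. The higher calls became 3, with Pde8a added, without Scf-GFP+ replicate 3 or whole marrow replicate 3, and also without the dimmest 30% of genes or with limma's trended, robust variance. With the sex-linked term Pde7b (adjusted p = 0.0972) and Pde4b (0.101) lost their calls, which left 1 in each direction.

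Of 9 genes of receptor desensitisation and trafficking, limma called 1 higher and 3 lower. Arrb2, beta-arrestin, which uncouples and internalises receptors, measured 7.91, 8.15 and 8.23 in Scf-GFP+ cells, against 10.82, 10.83 and 11.18 in whole marrow (-2.85 ± 0.15 SE, limma adjusted p = 2.64e-05). Its relative Arrb1 differed by -0.18 ± 0.24 and was not called (adjusted p = 0.627). The G protein regulator Rgs2 was lower by -2.18 ± 0.15 (adjusted p = 9.16e-05) and the receptor kinase Grk6 by -1.58 ± 0.26 (adjusted p = 0.00513). Slc9a3r1, a scaffold known to bind human RAMP3, differed by -0.68 ± 0.19 (adjusted p = 0.0425) and Nsf, a vesicle fusion factor tied to recycling with human RAMP3, by 0.11 ± 0.17 (adjusted p = 0.682), both short of the call. Grk4, called higher at 2.30 ± 0.52 (adjusted p = 0.0182), lost the call without whole marrow replicate 1 (adjusted p = 0.0618) or whole marrow replicate 3 (adjusted p = 0.0611), which left none higher. With the sex-linked term Grk4 (adjusted p = 0.163) and Grk6 (0.0687) were lost, which left 2 lower and none higher.

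Early genes that cyclic AMP can induce were lower in Scf-GFP+ cells, with 8 of 9 called lower and none higher. Nr4a1, an orphan nuclear receptor, measured 7.33, 6.49 and 6.99 in Scf-GFP+ cells, against 11.73, 11.77 and 11.77 in whole marrow, a 28.2-fold lower value (-4.82 ± 0.21 SE, limma adjusted p = 1.37e-05). Nr4a3 and Nr4a2 were lower by -2.28 ± 0.36 (adjusted p = 0.00421) and -2.13 ± 0.37 (adjusted p = 0.00612), and Fosb by -1.93 ± 0.50 (adjusted p = 0.0291). Per1, a clock gene, differed by 0.04 ± 0.15 and was not called (adjusted p = 0.872). These genes also respond to cell handling, and the Scf-GFP+ cells were sorted a second time, so handling and cell population cannot be told apart. Fosb lost its call without whole marrow replicate 1 (adjusted p = 0.0964) or whole marrow replicate 3 (adjusted p = 0.0834). With the sex-linked term only 4 were called lower, since Nr4a2 (adjusted p = 0.0514), Nr4a3 (0.0539), Fosb (0.286) and Dusp1 lost their calls.

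Adm is a known target of hypoxia-inducible factors, and other genes of that response were mixed. Of 21 genes, limma called 7 higher and 2 lower. Epas1, the hypoxia-inducible factor of vessels and stroma, measured 12.28, 12.10 and 11.89 in Scf-GFP+ cells, against 6.21, 6.41 and 6.21 in whole marrow, a 56.2-fold higher value (5.81 ± 0.14 SE, limma adjusted p = 2.10e-06). P4ha2, a collagen prolyl hydroxylase, was higher by 2.07 ± 0.31 (adjusted p = 0.00296), Hif1a by 1.65 ± 0.23 (adjusted p = 0.00218), and Vegfa, a vascular growth factor and hypoxia target, by 1.59 ± 0.12 (adjusted p = 0.000123). The glycolytic enzyme Hk2 was lower by -1.64 ± 0.15 (adjusted p = 0.000308) and the oxygen sensor Egln3 by -1.22 ± 0.29 (adjusted p = 0.0220). Egln3 measured 7.64 in whole marrow replicate 1, the array where Adm stood apart, and 6.44 and 7.08 in whole marrow replicates 2 and 3. Other genes of the list went both ways on that array. Among whole marrow arrays it was highest for Hk2 and Ldha but lowest for Pdk1, P4ha1 and Egln1. The higher calls dropped to 4 without Scf-GFP+ replicate 3, where Arnt, Bnip3 and P4ha1 were lost, and to 5 without Scf-GFP+ replicate 2, whole marrow replicate 1 or whole marrow replicate 3. Egln3 lost its call when Scf-GFP+ replicate 2 (adjusted p = 0.0655), Scf-GFP+ replicate 3 (0.0612) or whole marrow replicate 3 (0.0699) was left out, and fell short of 2-fold without whole marrow replicate 1 (-0.92); it was also lost with the sex-linked term (0.119). Lower calls numbered 3 with Scf-GFP+ replicate 1 left out.

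**Figure D4:**
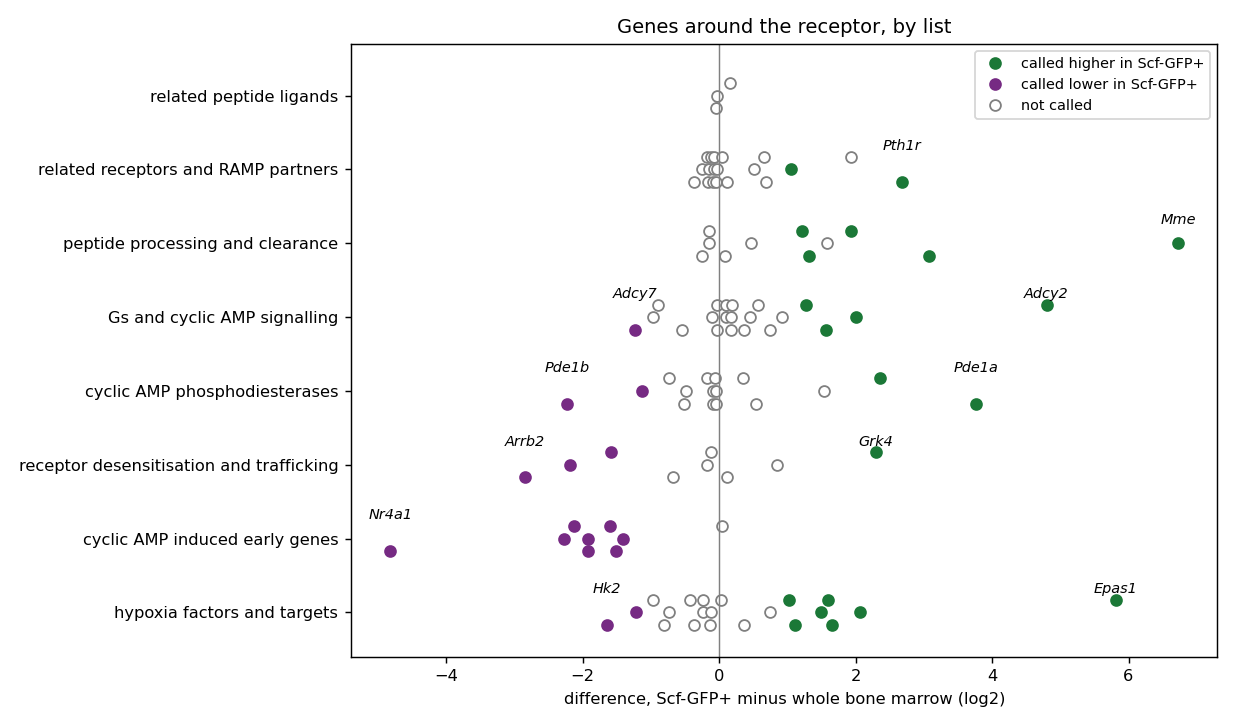
Difference between Scf-GFP+ cells and whole bone marrow on the log2 scale (horizontal axis) for each measured gene of the 8 lists (rows), filled where limma called the gene higher or lower and open where it did not, with the called gene of largest difference in each direction named. The related ligands cluster around 0, the early genes lie to the left down to -4.82 for Nr4a1, and Mme at 6.73 is the highest point.

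Markers of the sorted cells were high on the Scf-GFP+ arrays. Kitl, on whose reporter the cells were sorted, measured 10.16 to 10.83 in Scf-GFP+ cells, against 4.56 to 5.05 in whole marrow. All 12 perivascular stromal markers were called higher. Kitl is on that list, and the lists were fixed with earlier results known, so this is a description and not a test of identity. Runx1 of the pan-haematopoietic list (2.16) and S100b of the Schwann cell and neuron list (4.28) were also called higher. Of the other markers on these 2 lists, 11 pan-haematopoietic ones were called lower and 6 Schwann cell and neuron ones neither. Of 12 neutrophil markers 10 were called lower, with a mean range of 6.06 to 9.24 in Scf-GFP+ cells, against 11.69 to 11.77 in whole marrow. All 12 were called lower without Scf-GFP+ replicate 1, the array with the highest neutrophil mean of its group. Leaving out any other single array left 7, with Ngp, Retnlg and Cxcr2 lost. Scf-GFP+ replicates 1 and 2 measured 11.50 and 11.81 for Xist, against 5.04 in Scf-GFP+ replicate 3 and 4.99 to 5.10 in whole marrow. By this transcript alone, the arrays appeared to differ in the sex of the mice as well.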

How the data were processed

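The deposited file holds log2 values, 1 column for each of 6 arrays. Per the submitters' processing notes, which give no versions and no order of steps, the tools were RMA, limma and affy, and the annotation build is not given in the sources used here. RMA corrects background, equalises array quantiles and summarises probes, so it can compress large differences, and amplification from 5000 cells adds error. The number of arrays limits the precision. The deposited log2 values were used unchanged. Of 28940 rows, 21789 had 1 gene symbol, 1621 several and 5530 none in the platform annotation. Symbols were updated through Entrez identifiers with RefSeq (GRCm38.p6), 91 were kept as listed, and the highest-mean row stood for each of 19938 genes, 999 of which had several rows.

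Groups were compared with limma 3.58.1 in R 4.3.3 (statmod 1.5.0) without covariates, tested on simulated data first, with Benjamini-Hochberg adjustment over all genes. SE is limma's moderated standard error. The 5 genes and all lists were chosen with earlier results of these data known. Named genes are the 5 genes, the receptor's direct partners, up to 4 called genes per list and direction with the largest difference, and the 3 most similar genes for each of the 5. Genes named only for lost or added calls, and Rcan2's and Egln3's array values, were picked after values were seen. So were the hypoxia genes named beside Egln3 for their order among whole marrow arrays. Per1 and the marker genes named singly, such as Tek, Runx1 and S100b, also fall outside the naming rule. Among these, Emcn and Pecam1 had the highest and lowest differences of the endothelial list. Alternatives were median centring, quantile normalization, a filter on dim genes, other row rules, a trend, replicate blocks, a sex term, other fold minimums and single arrays left out.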

Additional observations from a re-analysis of the deposited data

Results flagged for a closer look

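A row outside the comparisons carried signal above the whole marrow level. It lists both Malat1, an abundant nuclear RNA, and Ramp2, and was left out because its symbol is not single. It measured 12.20, 12.61 and 12.42 in Scf-GFP+ replicates 1 to 3, against 11.36, 11.66 and 11.25 in whole marrow replicates 1 to 3, a difference of 0.99 on the log2 scale. Which transcript it measured was not tested, and it was not averaged with the Ramp2 row, whose difference was 4.20.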

How the results depend on the processing

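Ramp2, Ramp1 and Calcrl kept their direction under every alternative run. Their groups did not overlap, so leaving out a single array could not have turned the sign. The replicate block, with each number once per group, leaves the difference as it is, so these runs do not test the direction. When single arrays were left out, the difference ranged from 4.02 to 4.31 for Ramp2, -2.50 to -2.17 for Ramp1, 1.02 to 2.03 for Calcrl, -0.32 to 0.0017 for Ramp3 and -0.74 to 0.22 for Adm. Ramp3 gave no value without the dimmest 30% of genes. Calls over all genes (1796 higher, 1574 lower) became 2758 and 2635 with no fold minimum and 758 and 738 at 4-fold. Those among the surrounding genes (21 higher, 16 lower) became 27 and 25 with no fold minimum and 10 and 6 at 4-fold, and when single arrays were left out they lay between 18 and 21 higher and between 14 and 17 lower. The labels give both groups the same replicate numbers but no shared source, deviations of same-numbered arrays correlated at only -0.06 to 0.07 across genes, and 1 of 3 Scf-GFP+ arrays correlated best with its own number. With the replicate block 36 of these 37 calls remained and Arnt was lost. As a random effect (correlation -0.01) it removed none. Ramp2 differed by 4.20 ± 0.19 SE with the block. A term for the split in the sex-linked transcript Xist, which sets Scf-GFP+ replicate 3 alone against whole marrow, kept 26 of the 37. Values near the low end of the arrays, as for Ramp3 and Adm, limit what can be resolved. The lower group of the other genes also lay low. Whole marrow measured 5.80 to 6.00 for Ramp2 and 5.94 to 6.74 for Calcrl. Scf-GFP+ cells measured 6.03 to 6.62 for Ramp1, so these fold values share the limit.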

Other observations

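A pair of genes from the lists stood high in a single Scf-GFP+ array, and were picked after their values were seen. Adcyap1r1, a class B receptor for the neuropeptide PACAP, measured 7.24, 7.87 and 10.60 in Scf-GFP+ replicates 1 to 3, against 6.57 to 6.73 in whole marrow. Cpe, a carboxypeptidase of peptide hormone maturation, measured 5.90, 6.09 and 8.57 in Scf-GFP+ replicates 1 to 3, against 5.12 to 5.34 in whole marrow. Both were highest in replicate 3, whereas Calcrl was highest in replicate 1 and Ramp2 in replicate 2, and neither was called without covariates (limma adjusted p = 0.133 for Adcyap1r1 and 0.141 for Cpe). Both were called higher with the term for the sex-linked split, which rests on that replicate 3 against whole marrow.

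Several genes of the cyclic AMP pathway passed an adjusted p of 0.05 in limma but not the 2-fold minimum. Crem, a repressor and activator of cyclic AMP response elements, differed by -0.97 ± 0.15 SE (adjusted p = 0.00374), and Prkar2b, a regulatory subunit of protein kinase A, by -0.89 ± 0.14 (adjusted p = 0.00392). Adcy3, another adenylyl cyclase, differed by 0.93 ± 0.21 (adjusted p = 0.0186) in the other direction. Each lay without overlap between the groups, in 3 against 3 arrays, as did 45.4% of all genes.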
